A study of Homo sapiens with 2 samples.

Results

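The 10 globin genes *HBE1*, *HBG1*, *HBG2*, *HBB*, *HBD*, *HBZ*, *HBA1*, *HBA2*, *HBM* and *HBQ1* were followed in blood cells made from human induced pluripotent stem cells. They were taken by symbol from the 32738 genes of a single-cell RNA sequencing matrix. The cells came from the line iPS11, which was reprogrammed from fibroblasts. CD34+ cells from differentiating aggregates were grown for 5 days in medium for the endothelial-to-hematopoietic transition (EHT), the step in which endothelial cells become blood cells, on plates that were uncoated or coated with the adhesion molecule VCAM1, with the notch ligand DLL4, or with DLL4+VCAM1. Nonadherent cells of 3 wells were pooled per condition, so that each of the 4 conditions is 1 pooled sample with no replicate culture. Each pool carried its own antibody hashtag, and the pools were captured together as 1 library. No source used here ties a hashtag to a coating, so the pools are named by their tags, hashtags 0252, 0253, 0254 and 0255.

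Human red cells carry oxygen on hemoglobin, a tetramer built from alpha-type and beta-type globin chains. The human beta-type genes stand in a cluster on chromosome 11, with *HBE1* (epsilon) used in the first embryonic red cells, *HBG1* and *HBG2* (gamma) in the fetus, and *HBB* (beta) and the weakly used *HBD* (delta) after birth. The alpha-type genes stand on chromosome 16, where *HBZ* (zeta) is the embryonic gene, *HBA1* and *HBA2* (alpha) serve from the fetus onward, and *HBM* (mu) and *HBQ1* (theta) are minor members. Each cluster switches with development, so the balance within it is a common reading of how far red cells from pluripotent cells have matured.

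In the coordinates of GRCh37, the build named hg19 in the submitters' processing notes, the beta-type genes lie on the minus strand of chromosome 11. The main transcripts run from *HBB* (5246694 to 5248301) through *HBD* (5254068 to 5255713), *HBG1* (5269499 to 5271087) and *HBG2* (5274418 to 5276011) to *HBE1* (5289575 to 5291175). On the plus strand of chromosome 16 the order is *HBZ* (202643 to 204502), *HBM* (215977 to 216763), *HBA2* (222875 to 223709), *HBA1* (226679 to 227521) and *HBQ1* (230458 to 231178). The GENCODE annotation also holds long transcripts through which the spans of *HBG2* and *HBE1*, and of *HBZ* and *HBM*, overlap. The reads come from the 3′ ends of transcripts, and the last 300 bases of the *HBG1* and *HBG2* transcripts are 98.3% identical, against 93.0% for *HBA1* and *HBA2* and 75.2% for *HBB* and *HBD*. The split between the near-identical copies therefore depends on few bases, and values of *HBG1*, *HBG2*, *HBA1* and *HBA2* are uncertain to that extent. For this reason *HBG1* and *HBG2* are mostly given as their sum, called gamma. How reads that match near-identical copies equally well were counted was not tested. If such reads were left out, gamma and the sum of *HBA1* and *HBA2* would be too low. The same limit holds for shares and ratios built on these sums. Among them are gamma against *HBD*, zeta against alpha, and the beta cluster against the alpha cluster.

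RefSeq's table of promoter windows held 2 of the 10 genes, *HBD* and *HBM*. The window of *HBD* is shown because the RNA of *HBD* far exceeded that of *HBB* in these cells. It covers the 250 bases before the transcription start of *HBD*, at chr11:5234484-5234733 on the minus strand of GRCh38.p14, and is written 5′ to 3′. Capitals mark, from left to right, the letters CCAAT, a run that reads AGATAA on the other strand, and the letters CATAAA. The letters CCAAT stand at position -153 from the start site, and whether they act as a CCAAT box was not tested. AGATAA are the core letters of a GATA site. The letters CATAAA stand near the start site, where many genes hold a TATA box.
HBD: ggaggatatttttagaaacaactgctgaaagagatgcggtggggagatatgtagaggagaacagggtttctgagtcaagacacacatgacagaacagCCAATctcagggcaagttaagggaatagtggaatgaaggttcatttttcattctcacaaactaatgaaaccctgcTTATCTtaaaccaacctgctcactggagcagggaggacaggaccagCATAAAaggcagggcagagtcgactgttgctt
On either strand, CCAAT occurs in 32.0% of the 35116 windows in that table, AGATAA in 9.17% and CATAAA in 9.64%. CACCC, the core letters of a KLF1 site, occurs in 54.7% of the windows and does not occur in these 250 bases. A match of letters is a description of the sequence and was not tied to any measurement here.

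Cells with 1 hashtag call were kept when they had at most 36000 unique molecular identifiers (UMIs, each standing for 1 captured mRNA molecule), 6000 genes and 18% mitochondrial UMIs. This left 7550 of 10836 barcodes, with 1571 to 2136 cells per hashtag and a median of 17621 to 18770 UMIs per cell, and both deposited tables listed the same 10836 barcodes. Levels are given as CPM, the UMIs of a gene for every 1000000 UMIs of all genes in the cells named, and shares of cells in percent. The values in parentheses bound the 95% interval, exact Poisson for CPM and Clopper-Pearson for percentages, which covers counting error only and not the spread between cultures. Because every mRNA molecule gives at most 1 UMI whatever its length, CPM of different globins were compared directly, with the limit on near-identical copies given above. No p-value was computed, since there is 1 library and each hashtag is 1 sample.

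Globins made up a small part of the RNA of the cultures and sat in few cells. The 10 genes held 130620 UMIs, 0.0919% of all UMIs in the kept cells. No globin UMI was found in 48.3% of the cells, while 90% of the globin UMIs lay in 296 cells, 3.92% of the total. The cell with the most had 3839 globin UMIs, and in 28 cells globins exceeded 5% of the UMIs. Red cell precursors late in maturation carry mostly globin mRNA. The highest share in a cell here was 15.6%.

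Fetal gamma led the 10 genes. *HBG2* had 366 CPM (362 to 369) and *HBG1* 188 CPM (185 to 190), which together gave 553 CPM (549 to 557). *HBD* followed with 164 CPM (161 to 166) and embryonic *HBZ* with 107 CPM (106 to 109). *HBE1* had 52.1 CPM (50.9 to 53.3), *HBA1* 21.8 (21.0 to 22.5), *HBQ1* 13.6 (13.0 to 14.2) and *HBA2* 6.19 (5.78 to 6.61). *HBB*, the main beta-type gene of adult red cells, had 170 UMIs in all, or 1.196 CPM (1.02 to 1.39), and *HBM* had 38 UMIs. Neighbors in this order did not overlap in their counting intervals.

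The genes differed in how they were spread over cells. Of the *HBE1* UMIs, 67.1% lay in 10 cells and 23.9% in 1 cell with 1767 UMIs. The 10 cells highest for *HBZ* held 41.3% of its UMIs, and those for *HBG2* held 25.2%. *HBD* was spread more widely, with 11.3% in its 10 highest cells and no cell above 338 UMIs. *HBQ1* was the opposite of *HBE1*, since its 10 highest cells held 4.28% and no cell had more than 13 UMIs. At least 1 UMI was found in 20.1% of cells for *HBG2*, 18.8% for *HBD*, 17.7% for *HBQ1*, 8.78% for *HBZ* and 3.96% for *HBE1*, so that *HBQ1* was detected in about as many cells as *HBD* at far fewer UMIs.

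To read the globin level outside the red cell lineage, cells without a KLF1 UMI were picked by markers of other lineages. Macrophage-type cells with at least 10 UMIs of *C1QA*, *C1QB* and *C1QC* (633 cells) had 85.8 CPM of gamma (80.0 to 91.9). Of their globin UMIs, 76.7% lay in 5 cells with at least 10 beta-cluster UMIs, all of which also had *PF4* or *PPBP* UMIs. In the 592 C1Q cells without *PF4* or *PPBP* UMIs, gamma was at 13.9 CPM (11.5 to 16.6), *HBD* at 3.56 (2.42 to 5.06), *HBZ* at 2.76 (1.77 to 4.10) and *HBE1* at 1.84 (1.05 to 2.99), and no cell had 10 UMIs of any globin. Cells with at least 20 UMIs of *MPO*, a neutrophil granule gene (1196 cells), had 42.2 CPM of gamma (39.6 to 44.9), of which a part again sat in few cells: 51.4% of their globin UMIs lay in 6 cells. The level was not the same in every group. Among cells with under 10 beta-cluster UMIs, gamma was at 14.8 CPM in C1Q, 16.3 in MPO and 48.4 in collagen cells (75 cells in all). *HBD* was at 3.55, 5.08 and 38.6 CPM in the same order.

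Detection of a gamma UMI was therefore common in cells of other lineages. Whether such UMIs were free RNA or low expression was not tested. Among C1Q cells without *PF4* or *PPBP* UMIs, 17.6% had a gamma UMI at a median depth of 13331 UMIs, and among MPO cells 27.0% had one at 19568. The share in cells with neither a KLF1 UMI nor UMIs of both *PF4* and *PPBP* was also 27.0%, at 17989 UMIs, and in KLF1 cells it was 42.0% at 20418. After each cell was thinned to 5000 UMIs the shares were 6.79% (4.90 to 9.13) in these C1Q cells, 7.83% (6.36 to 9.50) in MPO cells, 11.0% (10.3 to 11.8) in cells with neither and 24.5% (21.9 to 27.4) in KLF1 cells. At this matched depth the cells with neither lay above the C1Q and MPO cells, both of which they include along with the strong globin cells described below. Single globin UMIs were for this reason not read as expression, and most cell-by-cell statements on globins below rest on at least 10 UMIs. The shares of cells with an *HBQ1* UMI, the counts of *HBB* cells and the co-detection of *HBE1* with gamma count any UMI. So do the calls by *KLF1*, or by *PF4* and *PPBP*, unless a minimum is named. These describe detection only.

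*HBQ1* did not follow the other globins in this background. In cells with under 10 beta-cluster UMIs it made up 7.93% of the globin UMIs of C1Q cells without *PF4* or *PPBP* and 21.4% of those of MPO cells. Thinned to 5000 UMIs, 0.849% (0.276 to 1.97) of these C1Q cells, 3.28% (2.34 to 4.46) of MPO cells, 4.97% (4.46 to 5.53) of cells with neither marker and 11.0% (9.13 to 13.2) of KLF1 cells had an *HBQ1* UMI. The intervals of the C1Q, MPO and KLF1 cells did not overlap, so the theta gene's share differed between cell groups beyond counting error at matched depth.

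Next, cells were grouped by 2 lineage markers. *KLF1*, a transcription factor needed for red cell genes, marked 971 KLF1 cells, of which 617 had a single UMI of it. *PF4* and *PPBP*, chemokine genes of platelets and their precursors, were both present in only 19 cells, called PF4+PPBP cells, and 6560 cells had neither. No cell had KLF1 together with both platelet genes. Because *PF4* was rare, 94 PPBP-high cells with at least 10 UMIs of *PF4* and *PPBP* together and no KLF1 UMI were added after the data were seen; 78 of them belong to the cells with neither. They had 3433 CPM of *PPBP* and 36.6 CPM of *PF4*.

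Every globin that could be compared was higher in KLF1 cells than in cells with neither marker. Of the 10 genes, 9 reached the minimum of 50 UMIs over the 2 groups together, and all 9 were at least 2 times higher, against 2.03% of the 14760 genes that passed the same minimum. *HBB* passed through the KLF1 cells, with 138 UMIs there and 32 in cells with neither, so its place in that count was fixed by the minimum. Gamma was at 2428 CPM (2407 to 2450) in KLF1 cells and at 207 CPM (205 to 210) in cells with neither, a ratio of 11.7. *HBZ* had the largest ratio, 62.0, from 673 CPM (661 to 684) against 10.8 (10.3 to 11.4), and 130 when 3 KLF1 UMIs were required. Without the 10 cells richest in globin it was 40.3. With a mitochondrial limit of 10%, which left 35 KLF1 cells, it was 5.08 and no longer the largest, below *HBA1* at 17.5 and *HBG2* at 11.8. *HBB* reached 6.70 CPM against 0.264, a ratio of 25.4. The ratios between these groups pool the 4 hashtags and were not computed within each. Gamma in KLF1 cells was at 845 CPM in hashtag 0252 and 4773 in hashtag 0254. Of cells with neither, 6.39% and 1.69% had at least 10 beta-cluster UMIs in the same order. The pooled ratios therefore need not hold for a single hashtag.

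Delta and theta stood lowest at the limit of 18%. *HBD* was at 424 CPM (415 to 433) in KLF1 cells and still at 116 CPM (114 to 118) in cells with neither, a ratio of 3.67. *HBQ1* gave 27.3 against 11.0 CPM, a ratio of 2.49. *HBE1* (ratio 8.92), *HBG1* (11.3), *HBG2* (11.9), *HBA1* (12.3) and *HBA2* (13.9) lay between. Without the cell of 1767 UMIs the ratio of *HBE1* was 5.32. At the 10% limit it was 0.696, with an interval of 0.415 to 1.10 that includes 1, and *HBD*, at 5.96, then stood above both *HBZ* and *HBE1*. When 3 KLF1 UMIs were required the gamma ratio was 31.8. It was 20.3 when the PPBP-high cells were taken out of both groups.

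**Figure D1:**
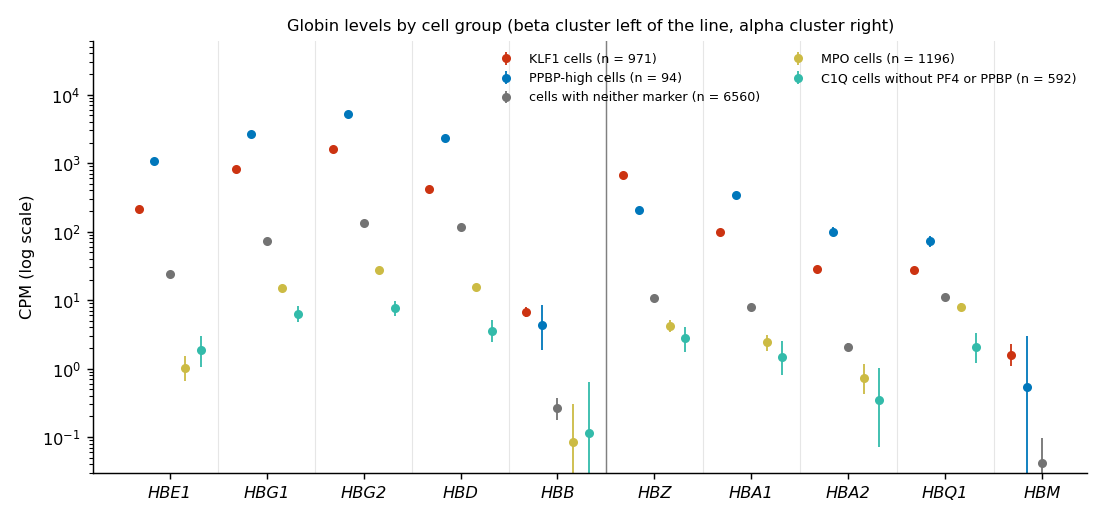
CPM of each globin (log axis, points with exact 95% Poisson intervals, counting error only) in KLF1 cells, PPBP-high cells, cells with neither marker, MPO cells and C1Q cells without *PF4* or *PPBP*; a group with no UMI has no point. PPBP-high cells lie above KLF1 cells for *HBE1*, gamma, *HBD*, *HBA1*, *HBA2* and *HBQ1*, and below them for *HBZ*, at 204 against 673 CPM.

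Cells with platelet markers carried more gamma and less zeta than the KLF1 cells, which needed only 1 UMI of their marker. The 196 cells with at least 3 KLF1 UMIs had 9070 CPM of gamma (8979 to 9161), 370 CPM of *HBA1* (352 to 388) and 2893 CPM of *HBZ*, so that the order for gamma turned with the minimum and that for zeta did not. The 19 PF4+PPBP cells had 8676 CPM of gamma and 238 CPM of *HBZ*. Of the 10 globins, 8 reached 50 UMIs over these cells and the cells with neither together, and all 8 were at least 2 times higher in the former, against 10.8% of 14481 genes. In the 19 cells alone *HBA2* had 33 UMIs and *HBQ1* 47. *HBB* and *HBM* had no UMI in them. The 94 PPBP-high cells had 7820 CPM of gamma (7693 to 7948), 2360 CPM of *HBD* (2291 to 2431) and 1065 CPM of *HBE1* (1018 to 1113), which were 3.22, 5.57 and 5.02 times the levels in KLF1 cells. Their *HBZ*, 204 CPM (184 to 225), was 0.303 times that of KLF1 cells. Nearly all of them, 91 of 94, had at least 10 beta-cluster UMIs, whereas 220 of the 971 KLF1 cells (22.7%) did. Markers of other lineages were present in PPBP-high cells at lower levels than in cells with neither, *MPO* at 185 against 1261 CPM and *C1QC* at 33.9 against 83.5. Cells with neither include the MPO and C1Q cells, which raise these levels. C1Q cells had *MPO* at 167 CPM, and MPO cells had *C1QC* at 11.6. Whether some droplets of PPBP-high cells held more than 1 cell was not tested.

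A list of erythroid genes and globin regulators was compared between KLF1 cells, of which 283 had no globin UMI, and cells with neither. Of its 50 genes, 44 reached the minimum of UMIs, 14 of these were at least 2 times higher in KLF1 cells than in cells with neither, against 2.03% of all genes compared, and 0 were 2 times lower; the list's median ratio was 1.41, against 0.969 over all genes. *ALAS2*, the first enzyme of heme synthesis in red cells, was highest at 12.9 against 0.462 CPM, a ratio of 27.9. *ANK1* (ankyrin, ratio 11.8), *CA1* (6.25), *GYPB* (5.31), *RHAG* (3.38) and *GATA1* (3.36) were also higher. The other heme enzymes and transporters were between 1.01 and 1.72 times.

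Over all 971 KLF1 cells, of which 220 had at least 10 beta-cluster UMIs, the regulators tied to the globin switch stood near their levels in cells with neither marker. The comparison therefore says little about the cells that held most globin, in which *BCL11A* was lower, as given below. *BCL11A*, the repressor of gamma in adult red cells, was at 42.3 CPM in KLF1 cells and 46.1 in cells with neither, a ratio of 0.919. *ZBTB7A*, another gamma repressor, gave 0.910, and *LIN28B*, an RNA-binding protein of fetal and embryonic blood, 0.897. The 6 genes of the embryonic and fetal group lay between 0.834 and 1.205. Among the 44 genes that reached the minimum, the lowest was *IKZF1*, at 0.702. *AHSP*, the chaperone that binds free alpha chains, had only 17 UMIs in KLF1 cells and none in cells with neither, and *SLC4A1*, the anion exchanger of mature red cells, had 1 UMI in KLF1 cells.

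Among other genes, those whose level per cell was most like the summed globins over the 971 KLF1 cells, of 9366 compared, included *BLVRB* (Pearson r = 0.76 of log2 values), *MYL4* (0.69), *GYPB* (0.61), *ANK1* (0.60), *SLC25A37* (0.57), *TSC22D1* (0.55), *UROD* (0.54) and *LMO2* (0.52). All values come from the same cells and library and share their depth. Among the 10 genes most like *HBZ* were *BLVRB* (r = 0.58), *ANK1* (0.56), *APOE* (0.53) and *KLF1* (0.51). Those most like *HBD*, looked up after the values were seen, began with *MYL4* (0.66), *BLVRB* (0.63), *GYPB* (0.61) and *GP9* (0.56), a platelet glycoprotein gene, and included *TUBB1* (0.49), the tubulin of platelets.

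The epsilon to gamma to beta balance was then read cell by cell in the 521 cells with at least 10 UMIs of *HBE1*, *HBG1*, *HBG2*, *HBB* and *HBD* together, which held 95.3% of all globin UMIs. There were 12 cells at exactly 10 UMIs and 16 just below, at 9. Of the 521, 220 had a KLF1 UMI, 91 were PPBP-high and 210 were neither. Pooled over all kept cells, gamma made up 71.8% of beta-cluster UMIs, *HBD* 21.2%, *HBE1* 6.76% and *HBB* 0.155%. Single cells rarely showed this mixture: the median gamma share was 43.5% with quartiles of 6.25 and 80.8%, and its variance was 22.7 times that of a binomial draw from 1 common share.

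Cells fell mostly to gamma or to delta. Gamma held over 50% of the beta-cluster UMIs in 238 cells (45.7%; 41.3 to 50.1), *HBD* in 255 (48.9%; 44.6 to 53.3), *HBE1* in 13 and *HBB* in none, with no majority in 15. Any loss of reads shared by *HBG1* and *HBG2* would lower the gamma share, and was not tested. In 89 cells gamma exceeded 90%, and in 152 it was under 10%. The 2 kinds of cell differed in amount, with a median of 167 beta-cluster UMIs in gamma-majority cells and 41.0 in delta-majority cells, while their depth was alike at 19924 and 19582 UMIs per cell.

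The balance moved with the amount of globin. In cells with 10 to 29 beta-cluster UMIs, 102 of 128 had a delta majority and the pooled gamma share was 22.6%. With 30 to 99 UMIs, 98 of 162 did, at a gamma share of 36.3%. With 100 or more, 159 of 231 had a gamma majority, at 77.2%, and 55 a delta majority. The count of gamma-majority cells among those scored accordingly went to 55.0% when 30 UMIs were required. A minimum on beta-cluster UMIs selects on the same counts as the shares, so these figures describe the cells and test nothing.

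**Figure D2:**
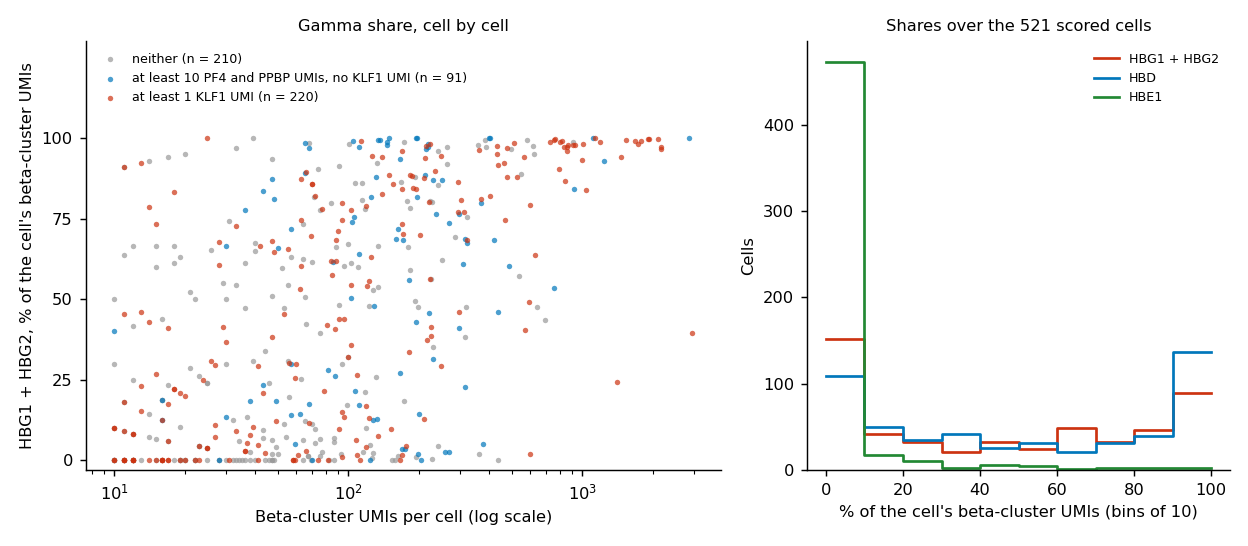
Left, gamma (*HBG1* + *HBG2*) as a percent of each cell's beta-cluster UMIs against those UMIs (log axis), 1 point per scored cell, colored by marker; right, the number of the 521 cells in bins of 10% for gamma, *HBD* and *HBE1*. Gamma and *HBD* pile up at both ends, 152 cells having under 10% gamma and 89 over 90%, and cells of high globin content are mostly gamma cells.

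Genes outside the beta cluster were compared between the 2 kinds. *ALAS2* was at 48.0 CPM (42.1 to 54.6) in gamma-majority and 4.95 CPM (3.23 to 7.25) in delta-majority cells, and *HBZ* at 2548 and 152. *GATA1* (287 and 275 CPM) and *ITGA2B*, a platelet integrin gene (347 and 342), had overlapping intervals, and *CD34*, a progenitor marker, was at 127 and 178 CPM. *BCL11A* was at 16.2 (12.9 to 20.2) and 19.0 (15.5 to 23.1), both below the 42.3 CPM of all KLF1 cells and the 46.1 of cells with neither. KLF1 UMIs were found in 45.0% (38.5 to 51.5) of gamma-majority and 40.8% (34.7 to 47.1) of delta-majority cells, and at least 10 UMIs of *PF4* and *PPBP* in 25.6% (20.2 to 31.7) and 12.2% (8.41 to 16.8).

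*HBD* often appeared with little gamma. Of 415 cells with at least 10 *HBD* UMIs, 123 (29.6%) had fewer than 3 gamma UMIs, and 1 such cell had 226 *HBD* UMIs. Only 2 of these 123 had 10 *HBZ* UMIs, against 52 of the 230 cells with 10 or more of both *HBD* and gamma. KLF1 UMIs were in 39.0% (30.4 to 48.2) of the first and 47.0% (40.4 to 53.6) of the second. The converse, at least 10 gamma and fewer than 3 *HBD* UMIs, was found in 37 cells, and 16 of those were high for *PF4* and *PPBP*.

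*HBB* stayed near its limit of detection. Its 170 UMIs came from 70 cells (0.927%), of which 46 had a single UMI and 12 had 3 or more, up to 25 in 1 cell. Of the 70 cells, 64 also had *HBD* and 42 (60.0%; 47.6 to 71.5) had KLF1 UMIs. For every 100 *HBD* UMIs there were 0.731 of *HBB*. The cell with 25 *HBB* UMIs had 25 of *HBD* and 40 of gamma, and the next, with 16, had 144 of *HBD* and 137 of gamma.

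*HBE1* was carried by a few strong cells. There were 47 cells with at least 10 of its UMIs, which held 94.3% of them, and 18 with at least 100. Of the 47, 37 also had 10 gamma UMIs, 18 had 10 *HBZ* UMIs, 16 had KLF1 and 17 were high for *PF4* and *PPBP*. The embryonic pair of epsilon and zeta was thus not always found together: 29 of the 47 had fewer than 10 *HBZ* UMIs. One cell of hashtag 0252 had 334 UMIs of *HBE1*, 19 of gamma, none of *HBZ* and 52 of *PF4* and *PPBP*. In contrast, the cell with 1767 *HBE1* UMIs, of hashtag 0254, had 1166 of gamma, 770 of *HBZ* and 17 of *KLF1*. Among all 299 cells with any *HBE1* UMI, 62.5% (56.8 to 68.0) had a gamma UMI, against 29.1% of all cells, and after thinning 59.7% (51.4 to 67.7), against 13.0%.

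In the alpha cluster the embryonic gene prevailed. *HBZ* made up 72.0% (71.4 to 72.6) of alpha-cluster UMIs over the kept cells, *HBA1* and *HBA2* together 18.7% and *HBQ1* 9.13%. Any loss of reads shared by *HBA1* and *HBA2* would raise the zeta share, and was not tested. Among KLF1 cells zeta was 81.2% (80.7 to 81.8), and among PPBP-high cells 28.5% (26.0 to 31.0), where *HBA1* and *HBA2* made up 61.4%. In the 77 KLF1 cells with at least 10 alpha-cluster UMIs the median zeta share was 84.1%. In 21 such PPBP-high cells it was 2.27%, and 12 of them were under 10%.

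Beta-cluster UMIs outnumbered alpha-cluster UMIs throughout. The ratio was 5.16 over all kept cells, 3.71 in KLF1 cells and 15.7 in PPBP-high cells. In red cells alpha-type and beta-type chains are made in near balance. The part that loss of reads shared by near-identical copies had in the ratio was not tested.

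The pairing of zeta with gamma differed between gamma-rich cells with a KLF1 UMI and those without. Of cells with at least 50 gamma UMIs, 52 of 99 with KLF1 (52.5%; 42.2 to 62.7) and 5 of 54 PPBP-high cells (9.26%; 3.08 to 20.3) had 10 or more *HBZ* UMIs. For every 100 gamma UMIs there were 27.1 and 2.30 of *HBZ*. *HBA1* and *HBA2* together gave 5.09 and 4.86 per 100 gamma. The median gamma of these cells was not equal, at 234 and 152 UMIs. The hashtags were not equally represented either. PPBP-high cells, with or without KLF1, numbered 47, 44, 7 and 10 in hashtags 0252 to 0255. Gamma cells with KLF1 had 10 *HBZ* UMIs in 28.0% (12.1 to 49.4), 42.3%, 71.4% and 69.2%, in that order. The interval of 0252 overlapped that of the PPBP-high cells. The parts of marker and hashtag in the difference were not tested. Low zeta was not particular to PPBP-high cells. Of the 55 cells with as much gamma that had no KLF1 UMI and were not PPBP-high, 14.5% (6.50 to 26.7) had 10 *HBZ* UMIs. They had 3.54 of *HBZ* for every 100 gamma UMIs. When only cells with 100 or more but under 500 gamma UMIs were compared, 19 of 45 KLF1 cells (42.2%; 27.7 to 57.9) and 3 of 38 PPBP-high cells (7.89%; 1.66 to 21.4) had 10 *HBZ* UMIs. In that range *HBA1* and *HBA2* gave 4.48 and 2.23 per 100 gamma, and *HBZ* 28.4 and 1.11. At 500 or more gamma UMIs, 29 of 31 KLF1 cells had them, with a median of 258, as did 5 of the 8 cells without KLF1, with a median of 18. The cell highest in gamma of all, PPBP-high with 2855 UMIs, had 1 of *HBZ*, whereas another PPBP-high cell with 1146 gamma UMIs had 147.

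Single cells did not use the 2 gamma genes in a fixed ratio. *HBG1* made up 33.5% (33.1 to 33.8) of gamma UMIs over the 208 cells with at least 50, but its share ran from 0 to 96.1% among them, with a median of 30.4% and a variance 41.8 times the binomial. A cell of hashtag 0252 had 229 UMIs of *HBG2* and none of *HBG1*, beside 338 of *HBD* and 259 of *HBZ*. At the other end, a cell of hashtag 0253 had 98 of *HBG1* and 4 of *HBG2*. Shares under 10% were found in 29 cells and over 75% in 30.

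The range of shares narrowed with gamma content, but not relative to counting error. In the 169 cells with under 500 gamma UMIs the standard deviation of the share was 28.1 points, against 4.45 for binomial draws. In the 39 cells with 500 or more it was 9.98 points against 1.51, and the variance was 43.6 times the binomial, against 40.0 times below 500. There the shares lay between 16.1 and 62.1%, and none was under 10 or over 75%. KLF1 cells (median 32.3%, n = 99) and PPBP-high cells (27.7%, n = 54) both spanned the range. For the alpha pair, *HBA1* was 74.8% (73.2 to 76.3) of *HBA1* and *HBA2* in the 45 cells with at least 20 UMIs of the pair summed, was above 50% in all 45 and varied 4.63 times the binomial. The part that reads shared between near-identical copies had in this spread was not tested.

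**Figure D3:**
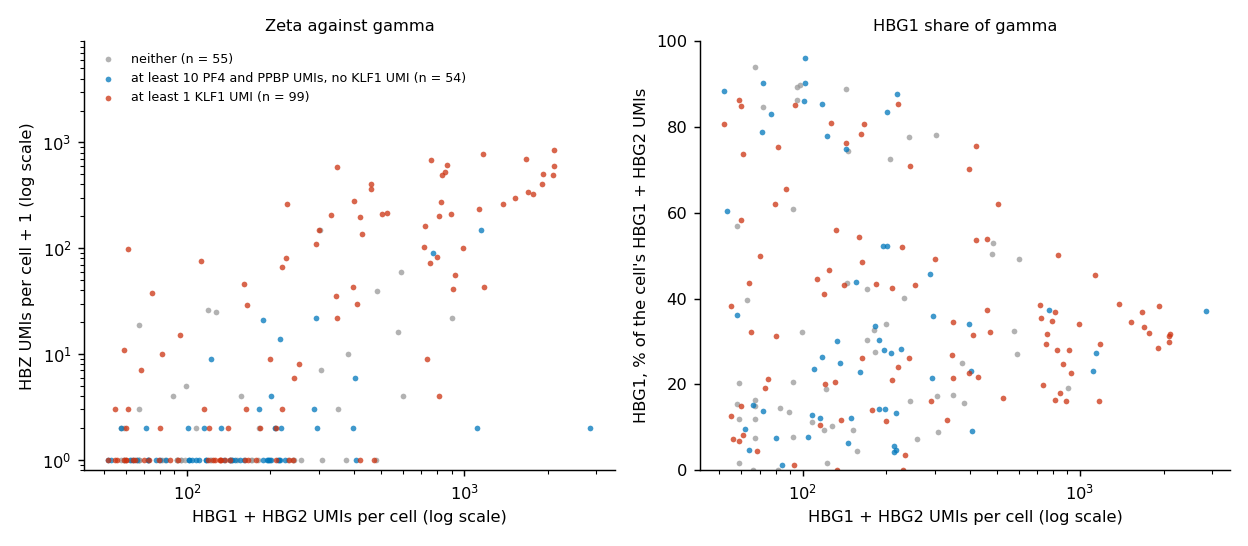
The 208 cells with at least 50 gamma UMIs, 1 point per cell colored by marker: left, *HBZ* UMIs plus 1 against gamma UMIs (both log axes); right, *HBG1* as a percent of gamma UMIs against gamma UMIs (log axis). PPBP-high cells (median 0, n = 54) and cells with neither marker (median 0, n = 55) lie mostly on the line of no *HBZ*, while KLF1 cells reach 842 UMIs. The *HBG1* share spreads from 0 to 96.1% at low gamma and narrows above 500.

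The hashtags differed in which globins they held. Of the 10 genes, 8 reached 200 UMIs, and for 7 of these the highest hashtag was at least 2 times the lowest, against 4.81% of 12272 genes; the exception was *HBQ1*, at a ratio of 1.33. A mitochondrial limit of 10% kept 736 cells, and only *HBE1*, *HBG1*, *HBG2* and *HBD* could then be compared. Of these, 3 genes passed, all but *HBD*. The share of all genes that passed at this limit was not computed. The ratios of *HBG1* and *HBG2* were 8.45 and 7.45 in place of 2.04 and 2.66. That of *HBE1* was 28.3 in place of 7.49, and that of *HBD* was 1.65 in place of 2.75. Without the 10 cells richest in globin, 5 genes passed. *HBA2* then gave 1.88 in place of 4.12 and *HBG1* 1.75 in place of 2.04. The ratio of *HBG1* was also below 2 with a margin of 1.2 on hashtag counts (1.92) and without the cell richest in *HBE1* (1.995). It stayed above 2 at the other settings that applied to it. Gamma was at 442, 631, 785 and 324 CPM in hashtags 0252 to 0255, in that order, a ratio of 2.42 between 0254 and 0255. *HBZ* was at 29.4, 98.7, 220 and 92.0 CPM, a ratio of 7.50 between 0254 and 0252, and of 4.54 without the 10 cells richest in globin. *HBD* followed another order, at 198, 228, 118 and 82.8 CPM, with its highest level in 0253.

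For *HBE1* the hashtags gave 78.8, 49.1, 58.3 and 10.5 CPM, but hashtag 0254 fell to 7.44 CPM without its cell of 1767 UMIs. Cells with at least 10 *HBE1* UMIs numbered 16, 19, 9 and 3, shares of 0.749% (0.429 to 1.21), 0.952% (0.574 to 1.48), 0.487% (0.223 to 0.923) and 0.191% (0.0394 to 0.557). *HBB* was at 1.36, 0.884, 1.27 and 1.30 CPM with overlapping intervals.

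**Figure D4:**
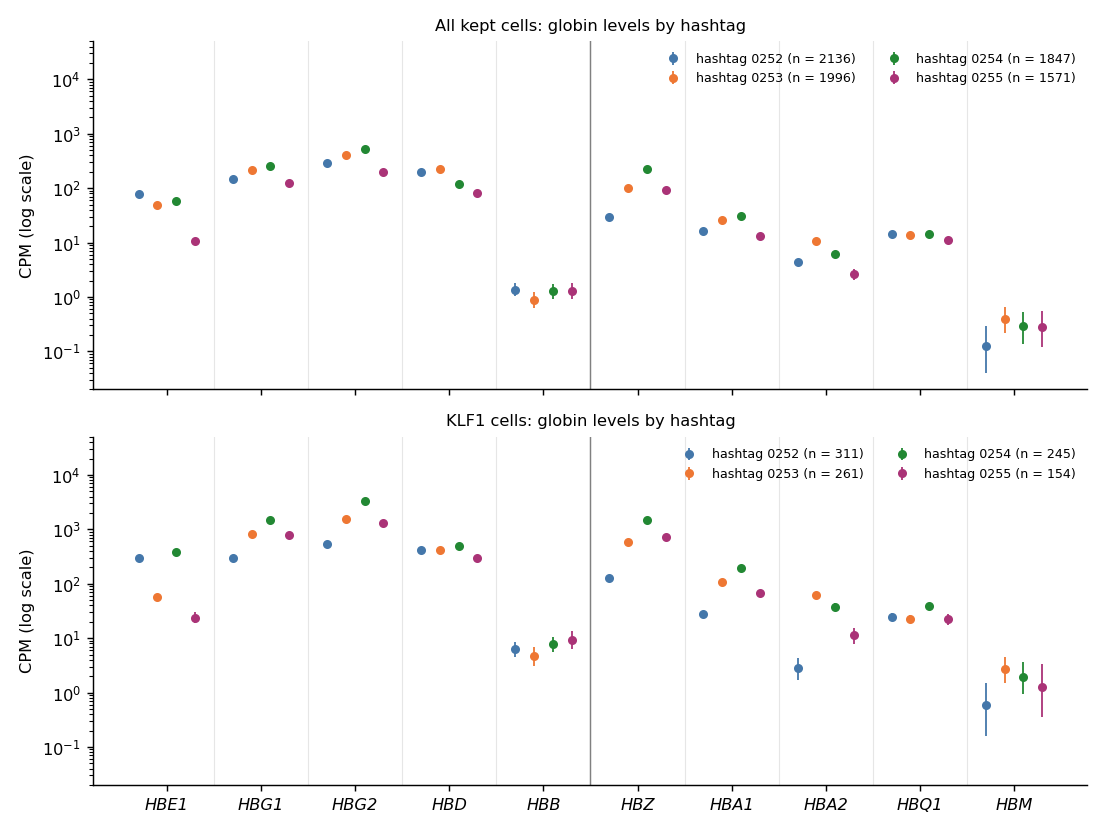
CPM of each globin (log axis, points with exact 95% Poisson intervals, counting error only) in the 4 hashtags, over all kept cells (top) and over KLF1 cells (bottom). Hashtag 0254 is highest for gamma and *HBZ* in both panels, hashtag 0252 is lowest for both among KLF1 cells, and *HBQ1* differs by a ratio of 1.33 and 1.74.

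The globin cells of the hashtags were also of different kinds. Cells with at least 10 beta-cluster UMIs were 8.85% (7.68 to 10.1), 9.47% (8.22 to 10.8), 5.04% (4.08 to 6.13) and 3.18% (2.37 to 4.17) of hashtags 0252 to 0255. Those with a KLF1 UMI were 3.04% (2.36 to 3.86), 3.21% (2.48 to 4.08), 3.52% (2.73 to 4.46) and 1.66% (1.08 to 2.42) of cells. The intervals of 0252, 0253 and 0254 overlapped, and that of 0255 overlapped only the one of 0252. Such cells without a KLF1 UMI were 5.81% (4.85 to 6.88), 6.26% (5.24 to 7.42), 1.52% (1.01 to 2.18) and 1.53% (0.981 to 2.26). PPBP-high cells, counted with or without KLF1, moved with the latter, at 2.20, 2.20, 0.379 and 0.637%. Gamma-majority cells were 43.4% (36.2 to 50.8), 42.3% (35.2 to 49.7), 53.8% (43.1 to 64.2) and 52.0% (37.4 to 66.3) of the scored cells, and these intervals overlapped.

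Within KLF1 cells the differences in gamma and zeta were larger. KLF1 cells were 14.6% (13.1 to 16.1), 13.1% (11.6 to 14.6), 13.3% (11.8 to 14.9) and 9.80% (8.38 to 11.4) of cells in hashtags 0252 to 0255. Their gamma was at 845 CPM (824 to 867), 2393 (2352 to 2434), 4773 (4714 to 4834) and 2116 (2065 to 2167), a ratio of 5.65 between 0254 and 0252. Their *HBZ* was at 127, 590, 1460 and 724 CPM, a ratio of 11.5, while *HBD* stayed between 303 and 505 CPM, a ratio of 1.67. Of the 8 globins with 200 UMIs in KLF1 cells, 6 had a ratio of at least 2, against 1.95% of 7731 genes, and *HBD* and *HBQ1* did not.

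Few cells carried these levels. Without the 5 cells highest in gamma of each hashtag, gamma in KLF1 cells was at 446, 956, 3090 and 552 CPM, and without the 5 highest in zeta *HBZ* was at 36.0, 124, 782 and 182 CPM, with 0254 still the highest and 0252 the lowest. The share of KLF1 cells with at least 10 gamma UMIs was 12.2% (8.79 to 16.4), 14.2% (10.2 to 19.0), 19.2% (14.4 to 24.7) and 12.3% (7.59 to 18.6), with overlapping intervals. For *HBZ* it was 3.54% (1.78 to 6.24), 4.21% (2.12 to 7.42), 13.5% (9.46 to 18.4) and 5.84% (2.71 to 10.8), so that 0254 stood above 0252 and 0253 beyond counting error. KLF1 itself was at 82.2, 82.0, 122 and 94.2 CPM in these cells. Among gamma cells with KLF1, 100 gamma UMIs went with 11.6, 25.1, 29.4 and 35.3 of *HBZ*.

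Of the 44 list genes compared within KLF1 cells, 24 were highest in hashtag 0254, 9 in 0252, 6 in 0253 and 5 in 0255. The same count was not made over all genes, so these numbers do not set the list apart from other genes. Within KLF1 cells *ALAS2* was at 2.19, 10.5, 29.7 and 13.1 CPM in hashtags 0252 to 0255 and *ANK1* at 8.91, 12.3, 21.3 and 9.62, with 0254 the highest for both, as for gamma and *HBZ*. Other list genes followed another order. *HEMGN*, a red cell nuclear protein gene, was at 23.5, 18.9, 12.1 and 2.88 CPM. *GFI1B*, a transcriptional repressor used by developing red cells and megakaryocytes, was at 52.7, 44.6, 38.7 and 32.4. *GATA1* was at 165, 175, 158 and 116 CPM, *BCL11A* at 38.6, 33.8, 43.3 and 64.1, and *LIN28B* at 41.2, 39.9, 39.6 and 37.8. Each hashtag is 1 pooled sample, so the difference between coatings, between pools and between the few cells that carry most globin cannot be told apart.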

How the data were processed

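Nonadherent cells of 4 pooled conditions were captured in 1 library with the 3′ chemistry of 10x Genomics and counted per gene and per antibody hashtag. Per the labels and the submitters' processing notes, the authors made the deposited counts (UMIs per gene and barcode, not normalized) with Cell Ranger 6.0.1 and the build hg19, and called hashtags per barcode. Of 10836 barcodes, 8488 had 1 hashtag, 1339 were called doublets and 1009 negative, and only those with 1 hashtag and within the limits stated above were used. No further doublet caller was applied, and Scrublet (scanpy 1.11.5), which called 580 barcodes (5.35%), served as an alternative. No per-sample column was left unmatched (0).

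UMIs were summed over the cells of a group with numpy 2.4.6, pandas 2.3.3 and scipy 1.17.1 in Python 3.11.15. Genes were compared when they had at least 50 UMIs over the cell groups or 200 over the hashtags, and called at a ratio of 2. For shares of cells with a UMI, cells were thinned to 5000 UMIs, leaving out 68 shallower cells. C1Q and MPO cells were defined as stated, and collagen cells with at least 10 UMIs served as a further group without a red cell marker. Scripts were tested on simulated data.

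The 10 globins were named in any case, together with the highest and lowest of the list of 50 red cell and regulator genes, *BCL11A*, *LIN28B*, *ZBTB7A*, *AHSP*, examples of that list, and the 10 genes most correlated with the summed globins over KLF1 cells, of those with a UMI in at least 10% of them, on log2 of CPM per cell divided by 100, plus 1. Of the genes this rule names, 2 are not reported here. The genes most like *HBZ* and *HBD*, and *ITGA2B* and *CD34*, were chosen after their values were seen. The globins, lists and cell groups were chosen with earlier results of these data known. The alternatives changed the limits on cells, the hashtag calls, the markers, the minimum of UMIs, the depth, the total behind CPM and single strong cells. Promoter sequence was RefSeq's, on GRCh38.p14, and was not joined to the GRCh37 coordinates.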

Additional observations from a re-analysis of the deposited data

Results flagged for a closer look

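Globin RNA was also found in barcodes outside the comparisons. Gamma stood at 431 CPM in the 809 barcodes with no hashtag call that met the limits on UMIs, genes and mitochondrial share, and at 701 CPM in the 1339 barcodes called as hashtag doublets. It stood at 735 CPM in the 397 cells with 1 hashtag that exceeded the limit on UMIs or genes, and at 919 CPM in the 541 cells that exceeded the mitochondrial limit alone. These levels were all above the 13.9 CPM of C1Q cells without *PF4* or *PPBP* and the 48.4 CPM of collagen cells with under 10 beta-cluster UMIs. Both of these groups leave out globin-rich cells and the barcodes here do not, so the levels are not like for like. All C1Q cells had 85.8 CPM, or 268 with no limit on UMIs or genes, and the level of all collagen cells is given further below. The kept cells had 553 CPM. Zeta made up 82.3% (80.7 to 83.9) of alpha-cluster UMIs in the barcodes with no call, 69.4% (68.3 to 70.5) in the doublets, 34.1% (31.6 to 36.6) over the limit on UMIs or genes and 59.2% (55.2 to 63.1) over the mitochondrial limit.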

How the results depend on the processing

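The gamma level of 553 CPM was 189 with a mitochondrial limit of 10%, 571 with no limit on UMIs or genes, 564 without barcodes that Scrublet called, 557 with a margin of 1.2 on hashtag counts, 418 without the 10 cells richest in globin and 545 without the cell richest in *HBE1*. In the same order of settings, the gamma ratio of KLF1 cells to cells with neither (11.7) was 11.0, 9.68, 11.9, 10.8, 8.96 and 11.4, and it was 31.8 with 3 KLF1 UMIs, 19.2 with the level of all C1Q cells subtracted, of whose globin UMIs 76.7% lay in 5 cells, and 20.3 with 10 UMIs of *PF4* and *PPBP* as the platelet marker. The zeta share (72.0%) was 42.4% at the mitochondrial limit of 10%, 69.6% with no limit on UMIs or genes, 70.9% with the hashtag margin, 69.3% without the 10 cells and 71.3% without the *HBE1* cell. Gamma in C1Q cells (85.8 CPM) was 18.8, 268 with no limit on UMIs or genes, and 13.9 without *PF4* or *PPBP*. KLF1 cells (12.9%) were 4.76% at the 10% limit, 12.0% with the margin, 2.60% with 3 UMIs and 4.96% after thinning. Requiring 30 beta-cluster UMIs gave 55.0% gamma-majority and 38.9% delta-majority cells. The 10% limit gave 41.7% delta-majority cells and 51.7% of *HBE1* cells with gamma. At that limit 3 globins differed between hashtags, where only *HBE1*, *HBG1*, *HBG2* and *HBD* could be compared. It gave 6 list genes at least 2 times higher, against 23 list genes with 3 KLF1 UMIs. Neither the share of all genes nor the number of list genes compared was computed at these settings. The counts are therefore not set against a background. The ratio of *HBE1* was 0.696 (0.415 to 1.10) at the 10% limit, below 1 but with an interval that includes 1. That limit kept 736 cells, 35 of them KLF1 cells; otherwise the cause was not tested. The settings on the platelet marker, the *HBE1* cell and C1Q cells without *PF4* or *PPBP* were chosen after seeing the data. Of 79 alternative values of the main results, 45 stayed within the counting interval (for counts, within 1.5 times), 34 moved beyond it, and 14 moved by over 1.5 times. Of 88 cell group ratios of single globins 49 moved and 1 turned below 1, 21 by over 1.5 times, and of 60 hashtag ratios 26 moved, 6 by over 1.5 times. No paired analysis was possible because there is 1 library and no result comes from a test. With 1 pool per hashtag, and 43 cells holding 50% of the globin UMIs, intervals cover counting error only.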

Other observations

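Globins were read beside one another over the 971 KLF1 cells, as correlations of log2 values that share cells, library and depth. *HBG1* and *HBG2* had r = 0.92, *HBZ* and *HBA1* 0.82, and *HBG2* and *HBZ* 0.76. *HBD* went with *HBG2* at 0.59 and with *HBZ* at 0.37, and *HBE1* with *HBZ* at 0.42. By these values the embryonic gene of the alpha cluster was closer to fetal gamma than to embryonic epsilon. Only 16 cells with a KLF1 UMI had at least 10 *HBE1* UMIs, and the part of this sparse detection in the lower r was not tested. Collagen-rich cells (75 cells) had 193 CPM of gamma, of which 3 cells carried much: 59.2% of their globin UMIs.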
